A study of Mus musculus with 6 samples.

Results

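Cytosolic ribosomal proteins assemble with ribosomal RNA into the large (60S) and the small (40S) subunit of the ribosome, so a cell that makes ribosomes needs nearly all of them in like amounts. Their mRNAs are among the most abundant in any cell, and in mammals most begin at a C followed by a run of pyrimidines, the 5′ terminal oligopyrimidine (TOP) element through which mTOR and the protein LARP1 set their translation. Some have paralogs with a narrower use, of which Rpl3l, a striated muscle relative of Rpl3, is the best known in this tissue.

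The genes described here are the protein-coding rows whose symbol is Rpl or Rps followed by a number and at most a letter and a digit, together with Rpsa, Rplp0, Rplp1 and Rplp2. The rule gave 83 of the 55450 genes of the table, 51 of the large and 32 of the small subunit. A further 6 rows fit the name but are typed as pseudogenes or processed transcripts (Rpl32l, Rpl6l, Rps12l1, Rps3a2, Rps3a3 and Rps4l) and were left out. RNA-seq was done on C2C12 cells, a mouse skeletal muscle line, in 3 siCD36 libraries (siRNA against Cd36) and 3 siCont libraries (control siRNA), all transfected with 20 nM siRNA and used after 72 h by the study's methods. The methods call the cells myotubes while the labels call them myoblasts, and which of the siCD36 duplexes each library received is not stated. No source states that each library is its own culture, and the p-values therefore reflect the spread among these libraries alone, which can be technical.

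The targeted gene fits the labels: Cd36 had 38, 32 and 30 counts in siCD36 libraries, against 1010, 1129 and 1103 in siCont libraries (log2 change -5.26, adjusted p = 2.95e-04 from edgeR). Totals were 67048354 to 71878709 counts in siCD36 and 56907806 to 60566530 in siCont. Markers of differentiated muscle were abundant, with a summed level of 8361 to 11050 FPKM in siCD36 and 9975 to 12540 FPKM in siCont over 22 genes, while all 5 adipocyte and all 5 macrophage markers averaged under 1 FPKM over the 6 libraries. Of the macrophage markers, Lyz2 reached 2.00 FPKM in siCD36 replicate 1, Cd68 ran from 0.533 to 1.20 FPKM over all libraries, and Adgre1 had 0 counts in every library. With edgeR's quasi-likelihood test and a threshold of 0.05 on the adjusted p, 260 of 11796 genes tested were higher and 361 lower with siCD36. Without siCD36 replicate 2 these counts were 5 and 15, and without siCD36 replicate 1 they were 431 and 650.

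Sequence around the annotated start is shown for 6 genes because the TOP element and the results below refer to it. RefSeq promoter windows of GRCm38.p6 were found for 63 of the 83 genes. Each line runs 5′ to 3′ from 40 bases before the start to 15 bases from it on, and the capitals mark the longest pyrimidine run that reaches within 5 bases of the start.
Rpl35 (chr2:39005117-39005171, minus strand): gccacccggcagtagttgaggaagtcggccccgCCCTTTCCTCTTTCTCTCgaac
Rps6 (chr4:86857353-86857407, minus strand): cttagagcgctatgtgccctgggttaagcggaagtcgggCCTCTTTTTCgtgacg
Rpl22l1 (chr3:28805468-28805522, plus strand): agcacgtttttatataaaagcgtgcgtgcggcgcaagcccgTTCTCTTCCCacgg
Rpl7l1 (chr17:46782642-46782696, minus strand): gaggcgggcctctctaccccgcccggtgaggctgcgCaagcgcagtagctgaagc
Rpl23 (chr11:97782425-97782479, minus strand): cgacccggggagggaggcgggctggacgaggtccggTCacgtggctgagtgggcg
Rpl11 (chr4:136053379-136053433, minus strand): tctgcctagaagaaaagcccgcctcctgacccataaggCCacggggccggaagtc
Rpl35 and Rps6 carry a long run at the start, Rpl22l1 has one that begins with T just after it, and Rpl7l1, Rpl23 and Rpl11 have none at this annotated position. A C followed by 4 or more pyrimidines began exactly at the annotated start in 12 of 63 genes (19.0%), against 2.49% of 27025 promoters of all genes, and within 5 bases of it in 28 (44.4%), against 18.5%. CCGGAAG, the core of a site for ETS factors, was on either strand of the 300-base window in 39.7% of these genes and 9.12% of all, ATGGCGG, the core of a YY1 site, in 15.9% and 4.19%, CTTTCC in 47.6% and 26.3%, and TATAAA in 9.52% and 14.2%. CTTTCC is itself a C followed by pyrimidines and can overlap the TOP run. A match is a description of these letters and does not show a bound site.

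Levels were high throughout. Of the 83 genes, 79 passed the filter of a mean of 1 FPKM and were tested, and they ranged from 5.43 FPKM (Rpl29) to 1045 FPKM (Rps15) with a median of 207.7 FPKM. On this scale per length, Rps15, Rpl19, Rplp1 and Rpl23a were the 4 highest, at 803.4 to 1045 FPKM in the mean of 6 libraries, and Rpl29, Rps2, Rps20 and Rps18 were the 4 lowest of those tested, at 5.43 to 37.3 FPKM. Rpl3l and Rpl21 had counts but stayed below the filter, and Rpl10l and Rpl39l, which are best known from the male germ line, had 0 counts in every library, which for each library allows up to 3 counts. Even Rpl29 averaged over 1 FPKM in both groups, so no gene passed the filter through 1 group alone, and 62 of the 79 averaged at least 100 FPKM.

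As a group, the transcripts were slightly more abundant with siCD36. They held 4.06%, 3.90% and 3.89% of all counts in siCD36 libraries, against 3.45%, 3.61% and 3.74% in siCont libraries. The siCD36 libraries lay above every siCont library, by 0.351 percentage points in the mean (3.95 ± 0.0983% and 3.598 ± 0.143%, SD, n = 3 each), which is larger than either SD. Fewer cells of a type and less RNA per cell cannot be told apart in such libraries.

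**Figure D1:**
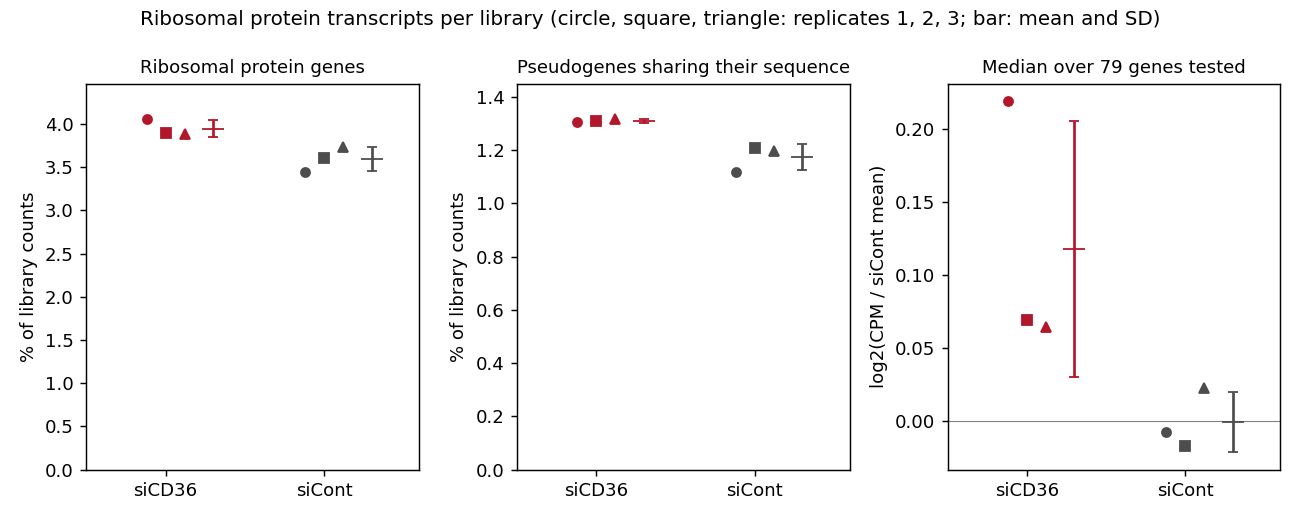
Share of all counts held by the 83 ribosomal protein genes (left) and by 680 pseudogene rows that share their coding sequence (middle), in % per library, and the median over 79 genes of log2 CPM relative to the siCont mean (right), with 3 siCD36 libraries left of 3 siCont libraries, symbols for replicate numbers and bars for the mean and SD. The siCD36 share is 3.89% to 4.06%, above 3.45% to 3.74% in siCont, and siCD36 replicate 1 stands at a median of 0.22.

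Gene by gene the differences were small. The log2 fold change ran from -0.27 (Rpl11) to 0.60 (Rpl29), with a median of 0.12 (1.08-fold), against a median of 0.0028 over all genes tested. It was above 0 in 67 of 79 genes (84.8%), where the background over all genes is 50.5%. Between the subunits the medians were alike, 0.12 over 47 large and 0.12 over 32 small subunit genes.

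Much of the size of this median came with 1 library. Relative to the siCont mean, the median over the 79 genes was 0.22 in siCD36 replicate 1, 0.069 in replicate 2 and 0.065 in replicate 3, against -0.0077, -0.017 and 0.022 in siCont replicates 1 to 3. Of the 79 genes, 69, 55 and 49 were above the siCont mean in the siCD36 libraries, against 37, 33 and 50 in the siCont libraries. Without siCD36 replicate 1 the median log2 fold change was 0.059, with 54 genes above 0. Leaving out any other library gave 0.11 to 0.14.

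Only a few genes passed the test. By edgeR, 2 of 79 (2.53%) were higher at an adjusted p under 0.05, Rpl7l1 and Rpl23, where the background is 2.2%, and 0 were lower, where it is 3.06%. At an unadjusted p under 0.05, 19 (24.1%) were higher against a background of 12.5%, and 1 (Rpl11) was lower against 12.9%. The CPM of the groups did not overlap in 25 genes (31.6%) that were higher, against a background of 16.1%, and in 2 (Rpl11 and Rpl13a) that were lower, against 16.3%. DESeq2 called 10 higher (Rpl22l1, Rpl23, Rpl23a, Rpl30, Rpl35, Rpl36a, Rpl7l1, Rps18, Rps19 and Rps26) and Rpl11 lower, where its background over all genes is 6.53% higher and 7.73% lower. By limma on log2(FPKM + 1), 3 were higher and 0 lower, where the background is 2.25% and 2.44%.

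**Figure D2:**
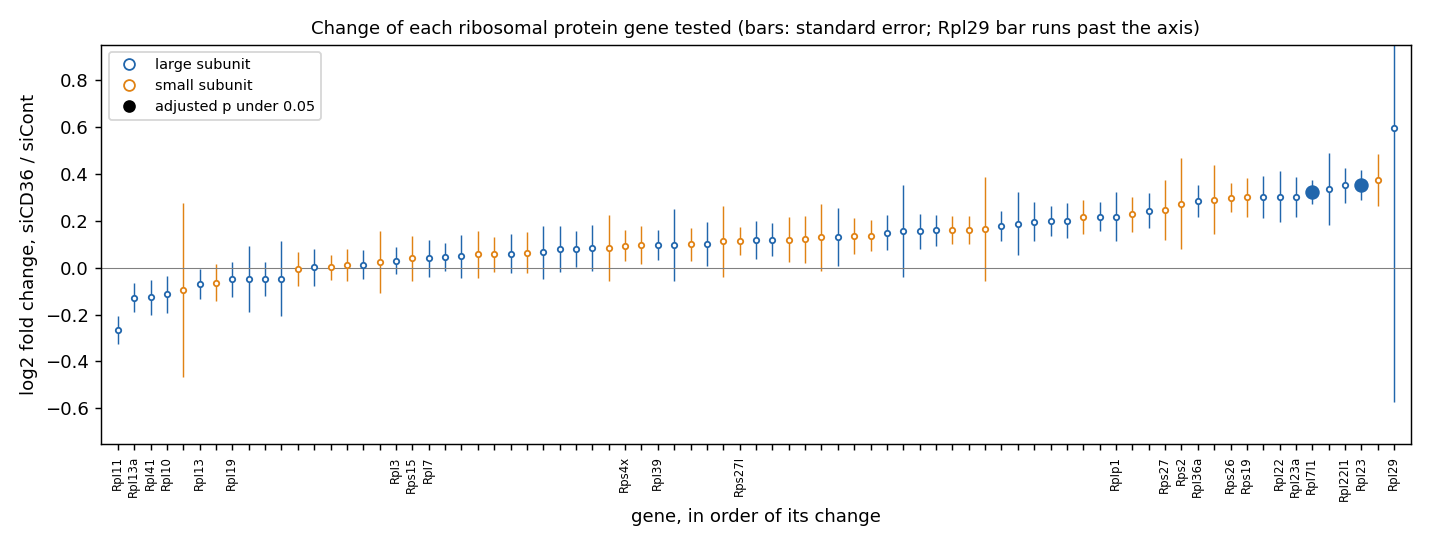
Log2 fold change of siCD36 over siCont (y) for each of the 79 ribosomal protein genes tested, in order of the change (x, with names for genes chosen by the naming rule), with bars for the standard error blue for the large and orange for the small subunit, and filled points for an adjusted p under 0.05 (Rpl7l1 and Rpl23). Most points lie between 0 and 0.4, and Rpl29 at 0.60 has a standard error of 1.17, which runs past the axis.

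Rpl7l1 (ENSMUSG00000063888), which encodes a relative of the large subunit protein Rpl7, is on chromosome 17 from 46773907 to 46782672 (GRCm38, minus strand). It was counted with the large subunit by its symbol alone, which does not show that it is part of the ribosome. It had 186.0, 180.7 and 181.3 CPM (counts scaled to library size with TMM factors) in siCD36 libraries, against 147.4, 144.3 and 146.9 CPM in siCont libraries. The groups were far apart and each varied little. It rose, with 0.32 as the log2 fold change (standard error 0.0504, adjusted p = 0.0274 from edgeR). Only 7.38% of its 75-base coding windows occur elsewhere among annotated transcripts, so few of its reads could be shared with another locus.

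Rpl23 (ENSMUSG00000071415), a protein of the large subunit at the face where the factor eIF6 binds, is on chromosome 11 from 97777527 to 97782437 (minus strand). It had 633.1, 641.1 and 605.0 CPM in siCD36 libraries, against 486.5, 471.8 and 513.1 CPM in siCont libraries. The lowest siCD36 library stood above the highest siCont library. It rose, with 0.35 as the log2 fold change (standard error 0.0633, adjusted p = 0.0347 from edgeR). Of its coding windows 78.32% also occur at other loci, and pseudogene rows sharing them held 44.4% of its summed counts. With these rows added its log2 fold change was 0.35 (adjusted p = 0.0344 from edgeR). For Rpl7l1 and Rpl23 the call held without siCD36 replicate 1 (adjusted p = 0.0306 and 0.0418 from edgeR) and was lost without any other library, with adjusted p up to 0.130 and 0.161, while the log2 fold changes stayed at 0.31 to 0.33 and 0.33 to 0.39.

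Rpl22l1, Rps26 and Rpl36a lay just outside the threshold. Rpl22l1, a paralog of Rpl22, had 104.0, 109.6 and 107.4 CPM in siCD36 libraries, against 76.6, 88.1 and 87.0 CPM in siCont libraries (log2 fold change 0.35, standard error 0.0742, adjusted p = 0.0502 from edgeR). Rps26, which sits at the mRNA exit channel of the small subunit, had 566.5, 542.4 and 525.9 CPM in siCD36 libraries, against 448.3, 424.1 and 457.2 CPM in siCont libraries (0.30, standard error 0.0633, adjusted p = 0.0504). Rpl36a had 286.1, 298.3 and 301.2 CPM in siCD36 libraries, against 259.6, 229.8 and 237.8 CPM in siCont libraries (0.28, standard error 0.0671, adjusted p = 0.0649). In each of the 3 genes all siCD36 libraries exceeded all siCont libraries, and the difference was larger than the spread within either group. Rpl22l1, Rps26 and Rpl36a passed with upper quartile scaling. With it the median log2 fold change over all genes tested was 0.0264, in place of 0.0028. An exon overlap with Gm33051 limits the reading of Rpl22l1, since the strand setting of the counts is not given in the sources used here. Of the coding windows of Rps26 61.25% also occur at other loci, and pseudogene rows held 40.5% of its summed counts. For Rpl22l1 these values were 72.26% and 2.6%, and for Rpl36a 100% and 25.6%.

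Rps19, the small subunit protein most often mutated in Diamond-Blackfan anemia, had 290.0, 277.1 and 252.0 CPM in siCD36 libraries, against 205.5, 222.4 and 237.5 CPM in siCont libraries (log2 fold change 0.30, adjusted p = 0.0900 from edgeR). Rpl23a, a large subunit protein at the exit of the peptide tunnel whose exons overlap Tlcd1, had 879.0, 847.2 and 826.3 CPM in siCD36 libraries, against 719.3, 733.8 and 617.1 CPM in siCont libraries (0.30, adjusted p = 0.0944). Neither pair of groups overlapped, and neither passed the test. Of the coding windows of Rpl23a 100% also occur at other loci. Pseudogene rows held 27.6%, 30.5% and 34.2% of its summed counts in siCD36 libraries, against 29.6%, 28.0% and 42.9% in siCont libraries. Once these rows were added, it had 1217, 1223 and 1258 CPM in siCD36 libraries, against 1019, 1017 and 1079 CPM in siCont libraries. Its log2 fold change was then 0.25 (adjusted p = 0.0746 from edgeR).

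Rpl5 and Rpl11 enter the large subunit together with 5S ribosomal RNA, and free of the ribosome they bind Mdm2, the ligase that degrades p53. Rpl11 had 415.9, 382.7 and 389.1 CPM in siCD36 libraries, against 473.7, 468.1 and 487.0 CPM in siCont libraries. All siCD36 libraries lay below all siCont libraries, with -0.27 as the log2 fold change (standard error 0.0608, adjusted p = 0.0597 from edgeR), and without siCD36 replicate 1 the gene passed the test (-0.30, adjusted p = 0.0374). Rpl5 had 979.7, 996.0 and 1032 CPM in siCD36 libraries, against 966.9, 887.9 and 846.3 CPM in siCont libraries, with 0.15 as its log2 fold change (standard error 0.0746, adjusted p = 0.251). The 2 partners thus had log2 fold changes of opposite sign, and that difference was not tested. Of the coding windows of Rpl11 100% also occur at other loci. Pseudogene rows sharing them held 9.8%, 9.3% and 8.7% of its summed counts in siCD36 libraries, against 5.4%, 5.1% and 5.6% in siCont libraries. Once these rows were added, Rpl11 stood at -0.20 on the log2 scale (standard error 0.0616). The groups still did not overlap, but edgeR's test was not passed (adjusted p = 0.110). Mdm2 had 79.9, 70.7 and 76.8 CPM in siCD36 libraries, against 67.5, 63.9 and 63.0 CPM in siCont libraries (0.23, adjusted p = 0.125).

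Outside the paralog pairs, the other genes below 0 with the smallest unadjusted p were Rpl13a (log2 fold change -0.13, adjusted p = 0.248 from edgeR), Rpl41 (-0.13, adjusted p = 0.337) and Rpl13 (-0.069, adjusted p = 0.538), and none passed. Rpl13a, a large subunit protein also known from the control of inflammatory mRNAs, had 426.8, 401.7 and 412.4 CPM in siCD36 libraries, against 436.4, 448.4 and 471.2 CPM in siCont libraries, which do not overlap on this scale. Its FPKM values do overlap between the groups (176.1, 170.7 and 176.7 in siCD36 libraries, against 173.0, 187.3 and 200.3 in siCont libraries), and its exons overlap Gm45713.

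The stalk proteins Rplp0, Rplp1 and Rplp2, which recruit elongation factors to the large subunit, showed how far siCD36 replicate 1 stood from its group. Rplp1 had 557.4, 500.6 and 440.3 CPM in siCD36 libraries, against 399.2, 433.0 and 456.9 CPM in siCont libraries, and the groups overlap (log2 fold change 0.22, adjusted p = 0.248 from edgeR). Rplp0 had 1487, 1333 and 1267 CPM in siCD36 libraries, against 1296, 1293 and 1332 CPM in siCont libraries, and without siCD36 replicate 1 its log2 fold change of 0.060 became -0.0080. Rplp2 behaved alike, with 308.5, 264.3 and 252.1 CPM in siCD36 libraries, against 281.7, 247.2 and 250.3 CPM in siCont libraries, and -0.0085 without that library in place of 0.082.

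**Figure D3:**
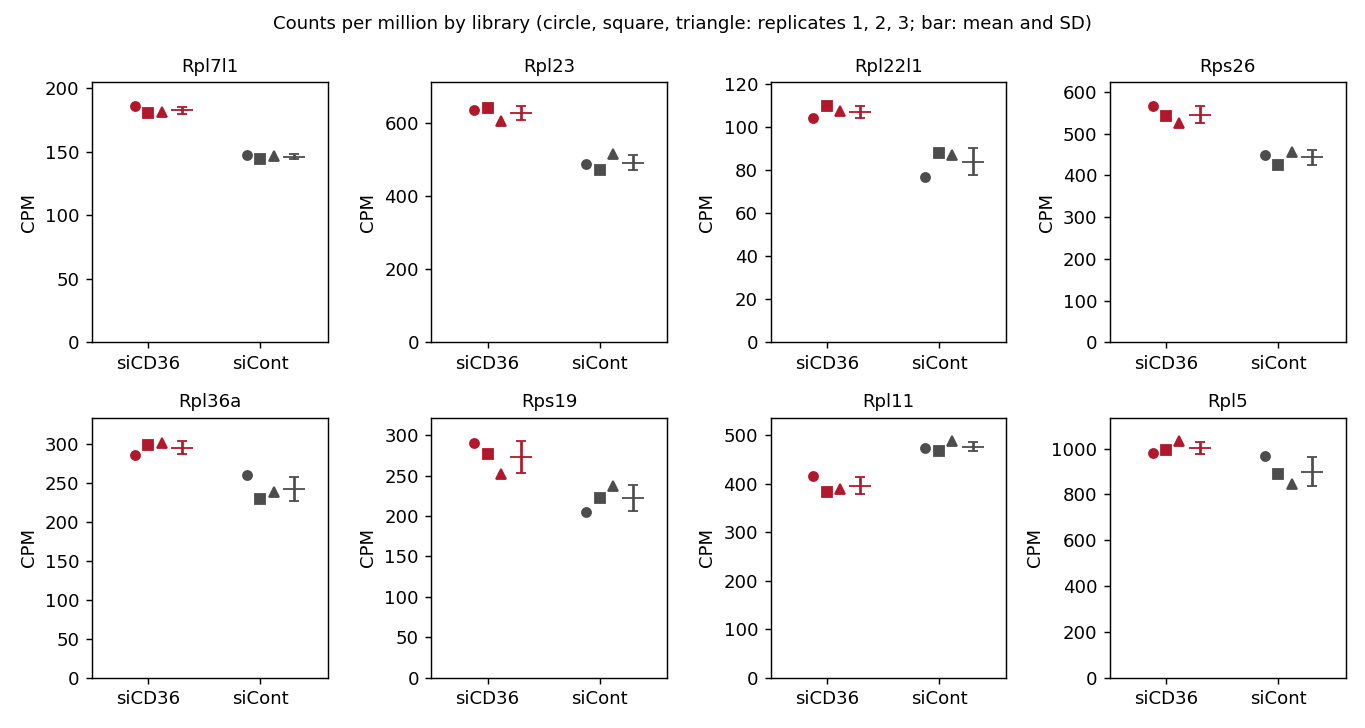
CPM after TMM scaling (y) of 8 ribosomal protein genes in 3 siCD36 libraries, left of 3 siCont libraries (x), with symbols for replicate numbers and bars for the mean and SD. The siCD36 libraries lie above the siCont libraries in every panel but that of Rpl11, where they lie at 382.7 to 415.9 CPM below 468.1 to 487.0 CPM.

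The most highly expressed genes on the FPKM scale did not pass the test in either direction, Rpl23a and Rplp1 included. Rps15 had 1178, 1045 and 985.5 FPKM in siCD36 libraries, against 936.4, 1043 and 1084 FPKM in siCont libraries (log2 fold change 0.039, adjusted p = 0.834 from edgeR). Rpl19 had 910.9, 839.0 and 852.4 FPKM in siCD36 libraries, against 878.4, 869.5 and 887.1 FPKM in siCont libraries (-0.049, adjusted p = 0.725). Both genes overlapped between the groups, and the exons of Rpl19 overlap Gm11629.

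Paralogs and their partners were then set side by side. The coding sequences of Rpl3l (1221 bases) and Rpl3 (1209 bases) are identical at 74.3% of 1206 aligned bases. They share no 75-base window, so their reads can be told apart from each other. The first 60 coding bases of each show this, with the 13 bases that differ in capitals and spans in GRCm38 that include introns.
Rpl3l (chr17:24727884-24728373, plus strand): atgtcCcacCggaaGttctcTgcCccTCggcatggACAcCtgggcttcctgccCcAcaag
Rpl3 (chr15:80082526-80083326, minus strand): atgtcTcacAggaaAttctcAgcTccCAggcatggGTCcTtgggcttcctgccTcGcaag
Coding identity to the partner was 57.3% for Rpl7l1, 69.4% for Rpl22l1, 76.2% for Rps27l, 84.7% for Rpl10l and 85.0% for Rpl39l, with no shared 75-base window in these pairs either.

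Rpl3l had 37, 16 and 13 counts in siCD36 libraries, against 105, 77 and 44 counts in siCont libraries, or 0.293, 0.124 and 0.0918 FPKM against 0.928, 0.684 and 0.414 FPKM. The groups did not overlap although the gene is near the limit of detection in both. Fitted with every gene that has a count, its log2 fold change was -2.01 (standard error 0.551, adjusted p = 0.150 from edgeR), and the adjusted p was 0.103 with the filterByExpr filter and 0.0713 to 0.401 on leaving out 1 library, with log2 fold changes of -2.67 to -1.67. Rpl3 had 171.3, 170.1 and 173.7 FPKM in siCD36 libraries, against 161.1, 160.7 and 172.1 FPKM in siCont libraries (0.029, standard error 0.0587, adjusted p = 0.795). Rpl3l thus reached 0.171%, 0.0731% and 0.0529% of the FPKM of Rpl3 in siCD36 libraries, against 0.576%, 0.426% and 0.241% in siCont libraries. These percentages are of the row of Rpl3 alone. Of its coding windows 93.39% also occur at other loci, and pseudogene rows held 47.3% of its summed counts. The mean log2 ratio differed by -2.16 (exact 2-sided permutation test, p = 0.1, the smallest that 3 libraries against 3 allow). With a pseudocount of 1 FPKM, far above the level of Rpl3l, the difference was -0.57.

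For the other pairs the ratio moved less. The difference of log2 ratios was 0.28 for Rpl7l1 to Rpl7, which reached 15.9%, 13.3% and 15.0% of its partner in siCD36 libraries, against 11.8%, 12.4% and 12.1% in siCont libraries (exact permutation p = 0.1). Rpl7 itself stood at 0.040 (adjusted p = 0.796 from edgeR). The symbol of Rpl36al falls outside the name rule. Rpl36al reached 97.1%, 86.9% and 82.1% of Rpl36a in siCD36 libraries, against 105.4%, 105.6% and 99.5% in siCont libraries, a difference of -0.23 (exact permutation p = 0.1). The coding sequences of this pair were not compared, so whether their reads can be told apart was not examined. Of the coding windows of Rpl36a 100% also occur at other loci, and pseudogene rows held 25.6% of its summed counts. Rpl22l1 stood at 47.1%, 57.3% and 45.5% of Rpl22 in siCD36 libraries, against 45.4%, 45.1% and 53.7% in siCont libraries (0.052, exact permutation p = 0.5), with Rpl22 itself at 0.30 (adjusted p = 0.148 from edgeR). Rps27l, a p53 target in other cells, stood at 46.8%, 39.8% and 37.1% of Rps27 in siCD36 libraries, against 53.2%, 45.7% and 38.1% in siCont libraries (-0.14, exact permutation p = 0.5). These are 5 pairs in all, and with 3 libraries against 3 none of them could reach p under 0.05. Rpl10 (-0.11, adjusted p = 0.405), Rpl39 (0.097, adjusted p = 0.388) and Rps4x (0.093, adjusted p = 0.421), whose paralogs had no counts or are typed as pseudogenes, did not pass edgeR's test.

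**Figure D4:**
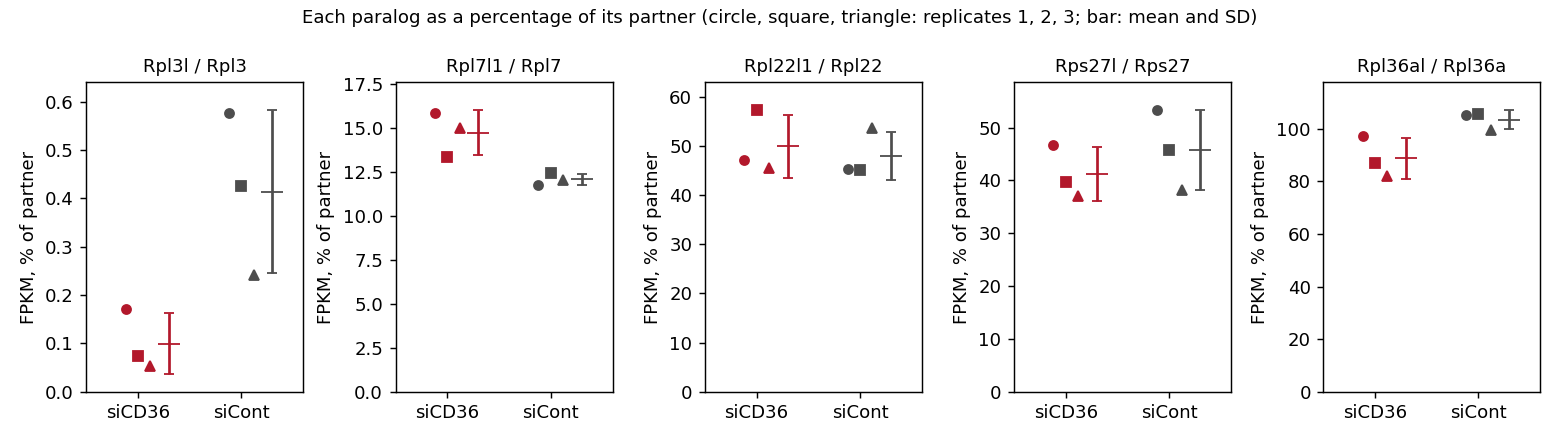
FPKM of each paralog as a percentage of the FPKM of its partner (y) in 3 siCD36 libraries, left of 3 siCont libraries (x), with symbols for replicate numbers and bars for the mean and SD. Rpl3l lies at 0.0529% to 0.171% of Rpl3 in siCD36 and at 0.241% to 0.576% in siCont, while the Rpl22l1 and Rps27l ratios overlap.

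A further limit on these genes is their many processed pseudogenes, copies of the mRNA inserted elsewhere in the genome. In GENCODE M21, 680 pseudogene rows of the table share at least 1 window of 75 bases with the coding sequence of 78 of the genes. In 63 of the 83 genes more than 50% of coding windows also occur in a transcript of another locus (median 81.5%), and 4 genes share none. By the study's methods the reads are paired and each is longer than such a window. A shared window therefore does not show that a whole read pair fits another locus, and these shares can overstate how many reads do. The pseudogene rows held 1.30% to 1.32% of counts in siCD36 libraries, against 1.119% to 1.208% in siCont libraries, which is 24.3% to 25.3% and 24.3% to 25.1% of the summed counts of genes and pseudogenes. The split was very uneven, with 99.6% of the summed counts of Rpl21 in pseudogene rows, 98.3% of Rpl29, 95.3% of Rps2 and 90.8% of Rpl26, and none of Rps3.

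Rpl29, a large subunit protein, illustrates it. The 75 coding bases below lie across an intron of Rpl29 on chromosome 9 (chr9:106430343-106431113, plus strand) and, unbroken, in the single exon of the processed pseudogene Gm13841 on chromosome 5 (chr5:115802013-115802087, minus strand). These bases alone do not tell the loci apart, while a read of this study also reaches beyond them.
Rpl29 and Gm13841: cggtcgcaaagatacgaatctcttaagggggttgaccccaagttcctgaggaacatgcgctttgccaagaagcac
Rpl29 had 52, 833 and 885 counts in siCD36 libraries, against 371, 572 and 27 counts in siCont libraries, and Gm13841 had 12261, 11579 and 15190 counts in siCD36 libraries, against 13718, 9508 and 9950 counts in siCont libraries. The row of Rpl29 alone therefore varied by more than an order of magnitude within each group, and its log2 fold change of 0.60 has a standard error of 1.17 (adjusted p = 0.790 from edgeR). Summed with its pseudogene rows, it had 452.1, 424.4 and 396.6 CPM in siCD36 libraries, against 421.3, 401.2 and 405.8 CPM in siCont libraries, a log2 fold change of 0.052 (standard error 0.0680).

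Rpl21 and Rpl17, both of the large subunit, varied less once summed, while Rps10 and Rps2 of the small subunit did not settle. Rpl21 alone had 211, 291 and 275 counts in siCD36 libraries, against 138, 123 and 131 counts in siCont libraries (log2 fold change 0.72 with every gene fitted, adjusted p = 0.127 from edgeR, 0.0861 with filterByExpr and 0.0927 to 0.388 on leaving out 1 library). Summed, it had 859.1, 811.6 and 851.0 CPM in siCD36 libraries, against 795.7, 722.6 and 757.0 CPM in siCont libraries, or 0.15 on the log2 scale (adjusted p = 0.219). Rpl17 alone overlapped between the groups, and summed it had 1020, 990.1 and 936.9 CPM in siCD36 libraries, against 783.2, 844.4 and 867.5 CPM in siCont libraries (0.24, adjusted p = 0.101). Rps10, whose exons overlap Gm15420 and RPS10-NUDT3, alone had 139.4, 244.0 and 125.9 CPM in siCD36 libraries, against 274.7, 132.0 and 137.4 CPM in siCont libraries, so siCD36 replicate 2 and siCont replicate 1 stood apart, and its sign turned to 0.33 without siCont replicate 1 in place of -0.095. Summed, these 2 libraries were still the highest. Rps2 summed had 1331, 1235 and 1409 CPM in siCD36 libraries, against 1572, 1460 and 801.6 CPM in siCont libraries, and siCont replicate 3 stands apart.

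**Figure D5:**
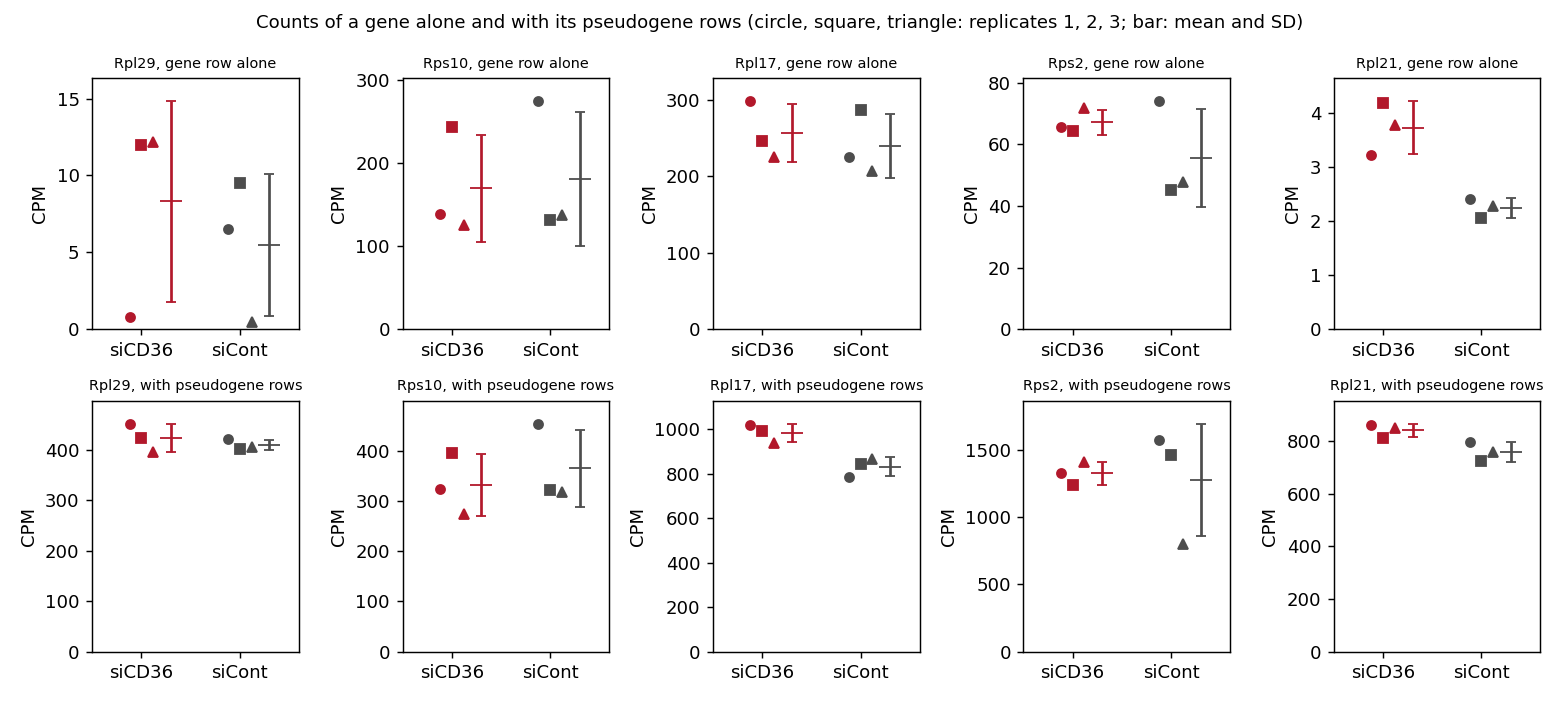
CPM (y) of 5 ribosomal protein genes from the row of the gene alone (top) and summed with the pseudogene rows that share its coding windows (bottom), in 3 siCD36 libraries left of 3 siCont libraries (x), with symbols for replicate numbers and bars for the mean and SD. Rpl29 spreads widely alone and lies at 396.6 to 452.1 CPM in siCD36 and 401.2 to 421.3 CPM in siCont once summed, while siCont replicate 3 of Rps2 stays low.

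The fit was therefore repeated with each pseudogene row added to its gene, an alternative chosen after the data were seen. Among 81 genes with counts, 5 were higher (Rpl22l1, Rpl23, Rpl36a, Rpl7l1 and Rps26, or 6.17%) and 0 lower in edgeR's test, where the background of this fit over 11428 genes is 2.49% higher and 3.2% lower. The groups did not overlap in 34 genes that were higher (42.0%) and in 2 that were lower, where the background is 16.2% in each direction. The median log2 fold change was 0.13.

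Features outside the name rule were set beside the change as a description. The median log2 fold change was 0.099 over 28 genes with a C and pyrimidines within 5 bases of the start, and 0.13 over 32 genes without. It was 0.12 over 24 genes with CCGGAAG in the promoter and 0.094 over 36 without. Of the 40 genes at or above the median FPKM 37 were above 0, and of the 39 below it 30 were. The median was 0.097 over 29 genes with a small nucleolar RNA inside and 0.12 over 50 without. Over the 8 genes tested with more than 50% of their summed counts in pseudogene rows it was 0.24, and over the other 71 genes it was 0.11, and the coefficient of variation within the siCont group had a median of 14.0% and 4.8% in these sets.

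The other genes of the pathway are given from lists, in the order of ribosome production. Of 15 genes of the RNA polymerase I and 5S machinery, which transcribes ribosomal RNA, 0 passed edgeR's test, 3 were higher and 0 lower at an unadjusted p under 0.05 (background 12.5% and 12.9%), and DESeq2 called 1, where it called 14.3% of all genes in either direction. Rrn3, the initiation factor of polymerase I, had 109.2, 115.8 and 111.3 CPM in siCD36 libraries, against 98.7, 99.8 and 85.2 CPM in siCont libraries (log2 fold change 0.25, adjusted p = 0.122 from edgeR). Taf1d (0.48, adjusted p = 0.116), Polr1d (0.21, adjusted p = 0.181) and Polr1e (0.21, adjusted p = 0.210) also had values above 0.

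Assembly factors include several genes that passed the test. Of 59 genes that process ribosomal RNA and assemble the subunits, 7 were higher (11.9%) and 0 lower in edgeR's test, against the background of 2.2% and 3.06%. At an unadjusted p under 0.05, 21 were higher (35.6%) and 5 of 59 lower, against 12.5% and 12.9% of all genes, and the median log2 fold change was 0.13. The 7 were Nop58, Dkc1, Gar1, Mak16, Rrs1, Ncl and Ddx21. Nop58, the core protein of box C/D small nucleolar particles, had 79.2, 89.6 and 87.9 CPM in siCD36 libraries, against 55.5, 59.5 and 56.4 CPM in siCont libraries (0.58, standard error 0.0747, adjusted p = 0.0173 from edgeR). Dkc1, the pseudouridine synthase of box H/ACA particles, had 39.7, 40.2 and 41.3 CPM in siCD36 libraries, against 29.4, 27.0 and 23.7 CPM in siCont libraries (0.60, adjusted p = 0.0284). Gar1, its partner, rose by 0.48 (adjusted p = 0.0284 from edgeR), and Mak16 by 0.32 (adjusted p = 0.0382). The groups of these 7 genes did not overlap. The count was 7 without siCD36 replicate 1, 1 without siCont replicate 1, and 0 without any one of the other 4 libraries, and it was 1 with no filter on low values, 3 with filterByExpr and 12 by DESeq2 (background 14.3%).

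Translation factors and other genes whose mRNAs also begin with a TOP element did not move together. Of 16, 0 passed edgeR's test, 5 were higher and 1 lower at an unadjusted p under 0.05 (background 12.5% and 12.9%), DESeq2 called 2 (background 14.3%), and the median log2 fold change was -0.0081. Pabpc1, the poly(A)-binding protein, had 874.6, 883.8 and 914.1 CPM in siCD36 libraries, against 755.7, 738.8 and 786.3 CPM in siCont libraries (0.23, adjusted p = 0.0849 from edgeR). Hnrnpa1 (0.28, adjusted p = 0.0877), Npm1 (0.35, adjusted p = 0.127) and Eif2s3x (0.30, adjusted p = 0.128) had values above 0 as well. Eef1a1, the general elongation factor, stood at -0.012 (adjusted p = 0.947). Its muscle and neuron paralog Eef1a2 fell, with 0, 0 and 16 counts in siCD36 libraries, against 566, 536 and 374 counts in siCont libraries (adjusted p = 0.0238 from edgeR), a call lost without siCD36 replicate 2 or without any 1 siCont library (adjusted p = 0.0588 to 0.0947).

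The remaining lists gave few calls. Fau, Rpl36al and Rack1, cytosolic ribosomal proteins that the name rule misses, had log2 fold changes of 0.13, 0.059 and 0.010, with 0 of them past edgeR's test, 0 at an unadjusted p under 0.05 and 0 by DESeq2. Of 19 importers, chaperones and surveillance genes, 0 passed edgeR's test, 1 was higher and 4 lower at an unadjusted p under 0.05 (background 12.5% and 12.9%), and DESeq2 called 3 (background 14.3%). Ipo7, an importer of ribosomal proteins, had 127.0, 140.6 and 143.5 CPM in siCD36 libraries, against 170.9, 167.3 and 158.2 CPM in siCont libraries (-0.27, adjusted p = 0.0773 from edgeR). Nap1l4 (-0.25, adjusted p = 0.0959) and Aarsd1 (-0.32, adjusted p = 0.101) were also lower without passing.

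Some markers of muscle differentiation and of proliferation moved between the same groups. Of the 22 differentiated muscle markers, 16 had log2 fold changes below 0 and 6 above. The highest were Myh1 (0.39, adjusted p = 0.268 from edgeR) and Tnnt1 (0.31, adjusted p = 0.317). Of 22 differentiated muscle markers 3 fell and 0 rose in edgeR's test, where the background is 3.06% lower and 2.2% higher, with Myh7, slow myosin, at -2.02 on the log2 scale (adjusted p = 8.47e-04), Mybpc2, fast myosin-binding protein, at -2.34 (adjusted p = 0.0253) and Myh3, embryonic myosin, at -0.62 (adjusted p = 0.0209). Of the 6 undifferentiated myoblast markers tested 1 rose (background 2.2%), Myf5 (0.93, adjusted p = 0.0274), with a summed level of 115.9 to 133.3 FPKM in siCD36 and 111.5 to 120.9 FPKM in siCont for the whole list, and Pax7 at no more than 0.0784 FPKM in any library. Of the 7 proliferation markers tested 2 rose (background 2.2%), Ccna2 (1.02, adjusted p = 0.0167) and Mcm5 (1.00, adjusted p = 0.0414), with a summed level of 70.7 to 76.4 FPKM in siCD36 and 60.5 to 63.5 FPKM in siCont, while Mki67, Birc5 and Ccnb1 averaged under 1 FPKM and were not tested. Mki67 had 422, 690 and 814 counts in siCD36 libraries, against 254, 222 and 186 counts in siCont libraries. Birc5 had 212, 314 and 478 counts in siCD36 libraries, against 130, 171 and 139 counts in siCont libraries. Ccnb1 had 281, 355 and 400 counts in siCD36 libraries, against 140, 174 and 140 counts in siCont libraries. These raw counts are not scaled to the larger totals of the siCD36 libraries. In FPKM the lowest siCD36 and highest siCont values were 0.556 and 0.370 for Mki67, 0.824 and 0.738 for Birc5, and 0.873 and 0.601 for Ccnb1. The siCD36 libraries thus lay above the siCont libraries in all 3 genes, narrowly for Birc5. Over all genes tested, 16.1% were higher without overlap in CPM. Of 4 fibroblast markers tested, 0 passed edgeR's test and 0 had an unadjusted p under 0.05, with a summed level of 668.6 to 690.8 FPKM in siCD36 and 598.3 to 734.9 FPKM in siCont. Of these 6 calls, that of Myh7 held on leaving out any 1 library, and the others were lost without siCD36 replicate 2 and without siCont replicates 1 or 2. The part of these shifts in the levels of ribosomal protein, Rpl3l and assembly factor transcripts was not tested.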

How the data were processed

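RNA-seq of 3 siCD36 and 3 siCont libraries of C2C12 cells was analysed, grouped by the sample labels. HISAT was the authors' aligner for the paired-end reads. They computed expression with StringTie and deposited raw counts per gene, which are not normalized, and FPKM, scaled by length and depth, with genes without reads listed at 0.0001. Not given in the sources used here: counting tool, annotation, strand setting and build. Positions and coding sequences are from GENCODE M21 (GRCm38), in which all 55450 genes were found, 71 of the 83 members at the same coordinates.

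The 11796 genes that averaged 1 FPKM or more were fitted with edgeR 4.0.16 in R 4.3.3 (TMM scaling, quasi-likelihood test, Benjamini-Hochberg adjustment over all of them), and the script was tested on simulated data. Depth was 56907806 to 71878709 counts per library, and precision is least for genes near the filter. The standard error was taken as the size of the log2 fold change over the square root of edgeR's F. "Did not overlap" refers to CPM after TMM. Values of paralogs were compared by exact permutation. The members and lists were chosen with earlier results of these data known. Genes were named by a rule: paralogs and partners, and among the others the 4 smallest unadjusted p in each direction, the 4 highest and 4 lowest levels, and up to 4 genes per list by p. Rpl5, Rpl17, Rps10, Rpl30, Rpl35, Rps18, Rps20, Rplp0, Rplp2, other calls of the lists and further markers were named after their values were seen. Alternatives were other scalings, filters and gene classes, limma 3.58.1, DESeq2 1.42.0, a block on the replicate number, omission of each library in turn and, added after the data were seen, pseudogene rows summed with their gene and edgeR's later fit.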

Additional observations from a re-analysis of the deposited data

How the results depend on the processing

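The median log2 fold change of the ribosomal protein genes kept its sign in every setting run (0.059 to 0.14 on leaving out a library), and the share of counts differed by 0.277 to 0.42 percentage points on leaving out a library, 0.489 with coding counts as the denominator and 0.486 with pseudogenes added. The number of these genes called higher was 5 with upper quartile scaling, a mean of at least 5 FPKM or summed pseudogenes, 4 with library totals, cyclic loess, limma on log2(FPKM + 0.1), protein-coding genes alone or edgeR's later fit, 10 with DESeq2, 0 with no filter, and 0 to 2 on leaving out a library. The share of all genes called higher was 2.49% with summed pseudogenes and 6.53% with DESeq2. For the other settings with 4 or 5 calls this share is not given here. The median log2 fold change over all genes was 0.0264 with upper quartile scaling and 0.0325 with library totals. It was 0.0322 with limma on log2(FPKM + 0.1), against 0.0028 in the main fit. Called lower was 1 (Rpl11) with the length offset, at least 5 FPKM and DESeq2, and 0 to 1 on leaving out a library. Over all genes, the counts higher and lower were 116 and 211 with no filter, 768 and 909 with DESeq2, and 5 to 431 and 15 to 650 on leaving out a library. Assembly factors called were 1 with no filter, 3 with filterByExpr, 12 with DESeq2 and 0 to 7 on leaving out a library. DESeq2 called 2 TOP factors (0 to 1 on leaving out a library), 1 polymerase I gene and 3 importers, and the length offset 1 importer. The causes were not tested, except that a filter changes how many genes are adjusted for.

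The main fit did not treat same-numbered libraries as pairs. Deviations of same-numbered libraries from their group means correlated at 0.143, -0.034 and 0.045. Those of differently numbered libraries correlated at -0.12 to 0.093. With 3 libraries per group these values cannot decide whether the replicate number pairs the libraries. With the number as a block the counts were 56 and 143 over all genes, 0 of the ribosomal proteins and 1 assembly factor, and 9 of 67 named genes lost their call.

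On leaving out a library the log2 ratio to the partner differed by -2.65 to -1.80 for Rpl3l, 0.23 to 0.35 for Rpl7l1, -0.29 to -0.17 for Rpl36al, -0.27 to -0.026 for Rps27l and -0.0505 to 0.13 for Rpl22l1, which turned without siCD36 replicate 2. With a pseudocount of 1 it was -0.57 for Rpl3l. No named gene whose sign changed was called. Rps15 was -0.064 with the length offset and -0.054 without siCD36 replicate 1, Rpl7 -0.0265 without siCD36 replicate 2, Rpl17 -0.025, Rplp0 -0.008 and Rplp2 -0.0085 without siCD36 replicate 1, and Rps10 0.028, 0.080 and 0.33 without siCD36 replicate 1, siCD36 replicate 3 and siCont replicate 1. Rack1 was -0.005 with filterByExpr and -0.11 to -0.025 without siCD36 replicate 1 (-0.11), siCont replicate 1 (-0.032) or siCont replicate 2 (-0.025). Eef1a1 was 0.0114 (upper quartile), 0.0187 (totals), 0.0382 (cyclic loess), 0.00 (length offset), 0.0079 (5 FPKM), 0.0195 (both limma fits), 0.0029 (protein-coding), 0.0095 (without siCD36 replicate 1) and 0.0146 (without siCont replicate 1). On leaving out a library these genes ranged over -0.0265 to 0.0815 (Rpl7), -0.054 to 0.10 (Rps15), -0.11 to 0.091 (Rack1), -0.033 to 0.0146 (Eef1a1), -0.025 to 0.25 (Rpl17), -0.45 to 0.33 (Rps10), -0.008 to 0.11 (Rplp0) and -0.0085 to 0.14 (Rplp2).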
